A study of Mus musculus with 6 samples.

Results

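The proteasome is the barrel-shaped protease that degrades most ubiquitin-tagged proteins of the cell. Its core particle stacks outer rings of alpha subunits, which gate the barrel, on inner rings of beta subunits, some of which carry the cutting sites. The regulatory particle that caps it has a base, with a ring of ATPases that unfold the substrate, and a lid that removes the ubiquitin chain, while separate activators open the gate without ATP. In skeletal muscle this system carries out much of the protein breakdown of atrophy.

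The genes described here were those of the deposited table whose symbols start with Psma, Psmb, Psmc, Psmd or Psme followed by a digit, without the inducible beta subunits Psmb8, Psmb9 and Psmb10 of the immunoproteasome. The rule took 46 of the 34745 genes in the table and used no measured value. Of these, 40 encode a subunit, a dedicated assembly chaperone or an activator. The other 6 carry a matching name only: 4 pseudogenes (Psmb5-ps, Psmb6-ps, Psmb6-ps2 and Psmb7-ps2), Psmc3ip, which encodes a partner of the meiotic recombinases, and Psme2b, a copy of Psme2 with a single exon.

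RNA was sequenced from NOR-10 cells, an immortal line of mouse skeletal muscle fibroblasts, so no muscle fibre, blood vessel or animal age was part of the comparison. The control group received PBS and the D-gal group 20 mg/mL D-galactose, a sugar used to induce senescence, for 3 days, with 3 libraries in each group and no other allele or agent named. The question put by the study was which genes differ between D-gal-treated and control fibroblasts. Nothing in the labels says that the libraries of a group came from separate cultures, so p-values measure only the spread between these libraries, which may be technical.

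The libraries held 16876087 to 20830349 counts (control) and 13759108 to 15157064 counts (D-gal). The 11 fibroblast markers listed took 1.36% to 1.39% of all counts with PBS and 0.740% to 0.772% with D-gal, and 9 of them were above the low-count filter, whereas Lum and Fap were near 0. The 21 markers of muscle, leukocyte, endothelial and epithelial cells summed to between 388.8 and 588.2 normalized counts with PBS and between 231.2 and 250.6 with D-gal, with Pax7, Myf5, Myod1, Cd3e and Epcam at 0 in all 6. The part of these shifts in the results below was not tested. In such bulk libraries, fewer cells of a type and less RNA per cell cannot be told apart.

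As a set, the members taken by the rule stayed close to their control level. Of 40 members with enough counts to be tested, 3 rose (Psmd5, Psmc6 and Psme3) and 4 fell (Psme4, Psmd8, Psmb4 and Psmc2) at an adjusted p under 0.05 (edgeR quasi-likelihood test, Benjamini-Hochberg over 13407 genes). That is 17.5% of the members tested, where 34.8% of all genes tested were called, 16.9% higher and 17.8% lower. None passed the study's further threshold of a log2 fold change of 1 in size, which 4.21% of all genes tested passed; at an unadjusted p under 0.05 there were 10 members, where 44.6% of all genes tested were under it. By DESeq2, with the adjusted p alone, 3 members were called higher and 2 lower, and none passed the fold threshold. The median log2 fold change of the members was -0.007, and that of all genes tested 0.004. The median size, without regard to sign, was 0.08 for the members and 0.19 for all genes tested. Without Psmc3ip and Psme2b, which carry a matching name only, 38 tested genes were left, with 18.4% called and a median size of 0.07. Related gene lists described below had median sizes of 0.07 (p97 and shuttle factors), 0.08 (ubiquitin and conjugation genes) and 0.09 (COP9 signalosome). Sizes were larger for associated proteins (0.13), transcriptional regulators (0.20), muscle atrophy ligases (0.15) and inducible subunits (0.10). The median SE was 0.051 for the members and 0.087 for all genes tested. In 82.5% of the members, 33 of 40, the log2 fold change was under 0.15 in size, and the same held for 41.2% of all genes tested. The 95% confidence interval of 36 members lay wholly within a 1.3-fold change in either direction.

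**Figure D1:**
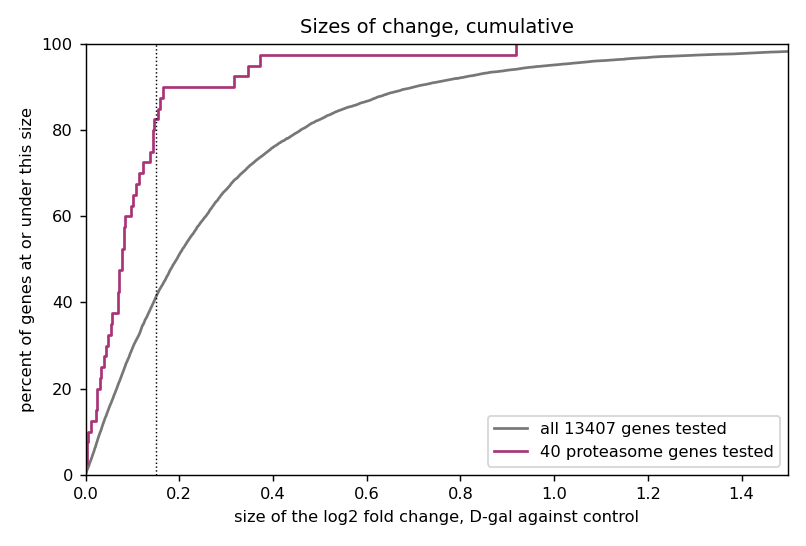
Cumulative percent of genes (vertical axis) against the size of the log2 fold change between D-gal and control libraries, sign disregarded (horizontal axis, drawn up to 1.5). The lines are all 13407 genes tested and the 40 members tested, labelled proteasome genes, with Psmc3ip and Psme2b among them. The dotted line marks 0.15, under which lie 82.5% of the members and 41.2% of all genes, and 1 member, Psmd5, lies above 0.5.

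Read library by library, the control and D-gal values overlapped for 26 of the 40 members and lay apart for 14 (35%), where 49.1% of all genes tested lay apart. Of the 14, 5 were higher with D-gal and 9 lower. The 46 members together took 0.4778%, 0.4838% and 0.4790% of all counts with PBS and 0.4923%, 0.4842% and 0.4885% with D-gal. Every D-gal share was above every control share, the closest by a narrow margin. These shares use library totals without scaling. Summed normalized counts of the 46 members overlapped between groups: 81050, 82230 and 81630 in control and 82030, 80130 and 80980 in D-gal libraries.

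**Figure D2:**
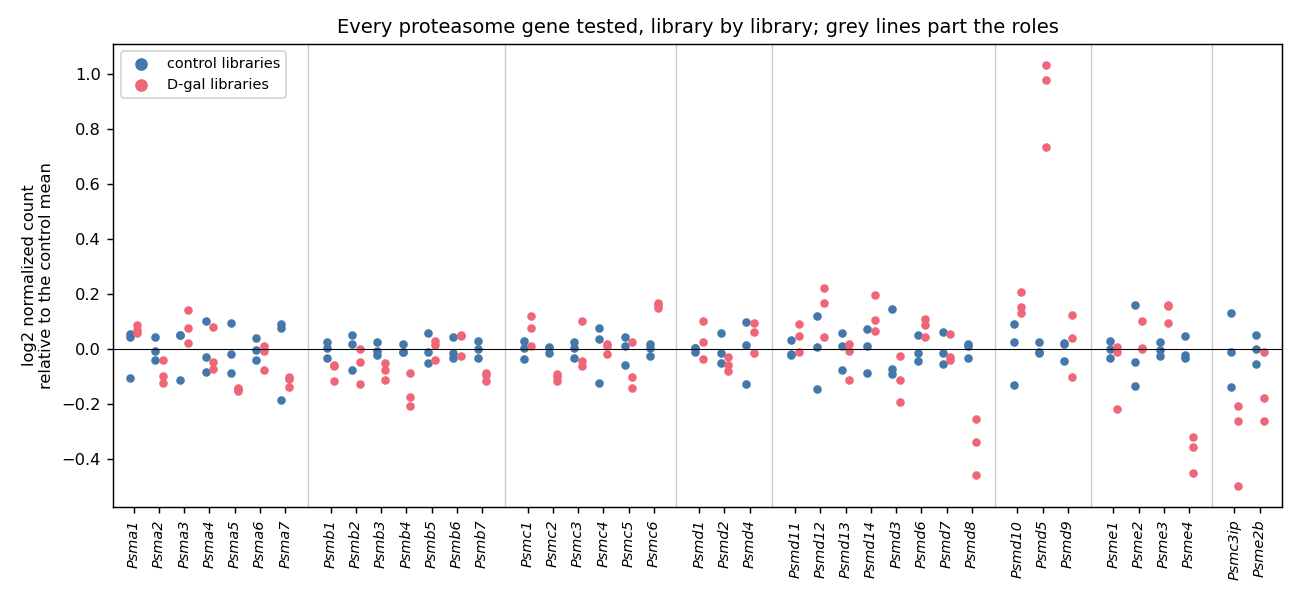
Each dot is 1 library; the vertical axis is the log2 normalized count relative to the mean of the 3 control libraries, and the 40 tested genes stand along the horizontal axis in groups by role. The D-gal dots of Psmd5 stand far above all others, those of Psmd8 and Psme4 below, and 26 genes have dots of both groups that overlap.

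The promoters of the 5 members with the smallest p are shown here because their genes moved in different directions, Psmd5, Psmc6 and Psme3 up and Psme4 and Psmd8 down. RefSeq promoter sequences (GRCm38.p6) were given for 35 of the 46 members. Each line runs 5′ to 3′ on the strand of the gene and ends at the RefSeq start or, where an exon of a coding transcript in GENCODE release M21 begins earlier, just before it. Capitals mark a match on either strand to TGACNNNGC, the core of the antioxidant response element through which the transcription factor NRF1, encoded by Nfe2l1, is known to raise proteasome genes, or to CCAAT, the box bound by NF-Y. In Psmd5 an annotated noncoding transcript of the same gene runs across the window.
Psmd5 (chr2:34870963-34871212, - strand): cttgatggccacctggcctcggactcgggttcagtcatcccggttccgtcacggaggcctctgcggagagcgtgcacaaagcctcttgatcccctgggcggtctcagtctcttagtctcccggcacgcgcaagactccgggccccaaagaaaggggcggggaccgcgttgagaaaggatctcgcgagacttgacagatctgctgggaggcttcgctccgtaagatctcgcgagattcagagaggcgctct
Psmc6 (chr14:45329574-45329787, + strand): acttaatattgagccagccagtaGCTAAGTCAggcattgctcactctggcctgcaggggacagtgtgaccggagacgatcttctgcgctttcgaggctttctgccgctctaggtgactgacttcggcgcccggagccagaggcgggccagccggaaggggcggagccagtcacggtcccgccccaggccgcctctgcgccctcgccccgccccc
Psme3 (chr11:101315963-101316212, + strand): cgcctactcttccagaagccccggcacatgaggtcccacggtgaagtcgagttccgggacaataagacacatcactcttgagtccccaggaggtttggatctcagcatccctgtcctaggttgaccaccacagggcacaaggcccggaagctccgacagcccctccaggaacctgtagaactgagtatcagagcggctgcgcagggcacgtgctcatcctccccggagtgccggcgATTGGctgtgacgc
Psme4 (chr11:30771525-30771725, + strand): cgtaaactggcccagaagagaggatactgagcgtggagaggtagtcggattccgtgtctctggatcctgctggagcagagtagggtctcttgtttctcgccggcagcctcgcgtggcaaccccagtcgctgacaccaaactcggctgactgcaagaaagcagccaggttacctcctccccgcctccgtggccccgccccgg
Psmd8 (chr7:29180702-29180923, - strand): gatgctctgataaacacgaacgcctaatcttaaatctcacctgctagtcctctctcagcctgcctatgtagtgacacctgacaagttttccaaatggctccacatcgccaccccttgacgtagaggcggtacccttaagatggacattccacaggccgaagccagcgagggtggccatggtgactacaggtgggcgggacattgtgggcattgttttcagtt

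Neither motif was found in the windows of Psmd5, Psme4 and Psmd8. In 250 bases upstream of the start, TGACNNNGC occurred in 5 of 36 promoters of 33 proteasome genes (13.9%) and in 10.2% of 32851 promoters of all genes. CCAAT occurred in 13 of the 36 (36.1%) and in 33.8% of all promoters. The proteasome promoters had a median GC content of 57.6% and a median of 15 CpG, where all promoters had 52.4% and 6. Beside Psmc6, shown above, the genes with a TGACNNNGC match were Psmb5 and Psmb6, which encode catalytic beta subunits, the lid gene Psmd12 and the chaperone gene Psmd9, shown here with up to 20 bases on each side of the match because these are the members in which that core was found.
Psmb5 (chr14:54618023-54618062, - strand): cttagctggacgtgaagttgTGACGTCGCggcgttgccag
Psmb6 (chr11:70525328-70525356, + strand): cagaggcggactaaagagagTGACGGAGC
Psmd12 (chr11:107479278-107479309, + strand): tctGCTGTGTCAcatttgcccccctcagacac
Psmd9 (chr5:123228139-123228187, + strand): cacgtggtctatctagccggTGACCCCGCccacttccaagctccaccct

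The match starts 47 bases before the start in Psmb5, 9 in Psmb6 and 31 in Psmd9, and 247 bases before it in Psmd12. The log2 fold changes of these 4 genes were 0.002 (SE 0.048) for Psmb5, 0.02 (SE 0.040) for Psmb6, 0.15 (SE 0.073) for Psmd12 and 0.02 (SE 0.068) for Psmd9, and none passed the test. A match is a description of the letters in the window, not of binding.

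The outlying member was Psmd5, which encodes S5b, a chaperone that holds part of the ATPase ring while the base is built and is not part of the finished proteasome. Its normalized counts were 1037, 1009 and 1011 with PBS and 2007, 1694 and 2085 with D-gal. The lowest D-gal library lay well above the highest control library. The means were 1019 ± 15.6 (SD, n = 3) and 1928 ± 207 (SD, n = 3), a log2 fold change of 0.92 (SE 0.075), or 1.89-fold with a 95% confidence interval of 1.68 to 2.13, at an adjusted p of 8.1e-05 by edgeR. It stood 313th among all genes tested when ordered by p. Without D-gal replicate 2, the lowest of the D-gal libraries, the log2 fold change was 1.01 and Psmd5 passed the fold threshold as well.

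Within a library, a ratio of counts does not depend on scaling. Psmd5 had 6.89 to 7.28 counts for each 100 on the 6 ATPase genes, whose assembly it serves, with PBS, and 11.7 to 14.5 with D-gal. Per length, Psmd5 was low among the members, at 8.40 RPKM (reads per kilobase of exon, scaled to library size) in control libraries on average. In D-gal libraries it had 15.9 RPKM, while the ATPase genes had control levels of 34.2 to 100.6 RPKM. These levels rest on an exon length of 7230 bases for Psmd5 and of 1394 to 5031 for the ATPase genes. By mean normalized counts in control libraries, Psmd5 had 1019 and the ATPase genes 1772 to 2888. Psmd5 lies on the minus strand of chromosome 2 (GRCm38, 34849734 to 34874968), and only 1.36% of its 31-base words occur in other genes. Its annotated body overlaps that of Cutal on the other strand by 573 bases, with no exon shared. Cutal had a mean of 19.2 normalized counts in control and 39.0 in D-gal libraries, a log2 fold change of 1.01 (SE 0.22, adjusted p = 0.00823 by edgeR), and whether the counting used strand is not stated. The closest tested gene on the far side was Fbxw2, 23423 bases away. It was called higher, at a log2 fold change of 0.21 (SE 0.068, adjusted p = 0.0419 by edgeR).

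Neither of the other base chaperone genes passed the test. Psmd10 encodes gankyrin, which is also known for binding the retinoblastoma protein, and had normalized counts of 569.1, 488.0 and 544.3 in control and 584.7, 617.0 and 594.0 in D-gal libraries. The groups did not overlap, but the log2 fold change of 0.17 (SE 0.072) did not pass (adjusted p = 0.111 by edgeR). Psmd9, which encodes p27, overlapped between groups at a log2 fold change of 0.02. Summed over the 3 chaperone genes, normalized counts were 2326, 2249 and 2310 in control and 3356, 3002 and 3487 in D-gal libraries, most of the difference being Psmd5.

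**Figure D3:**
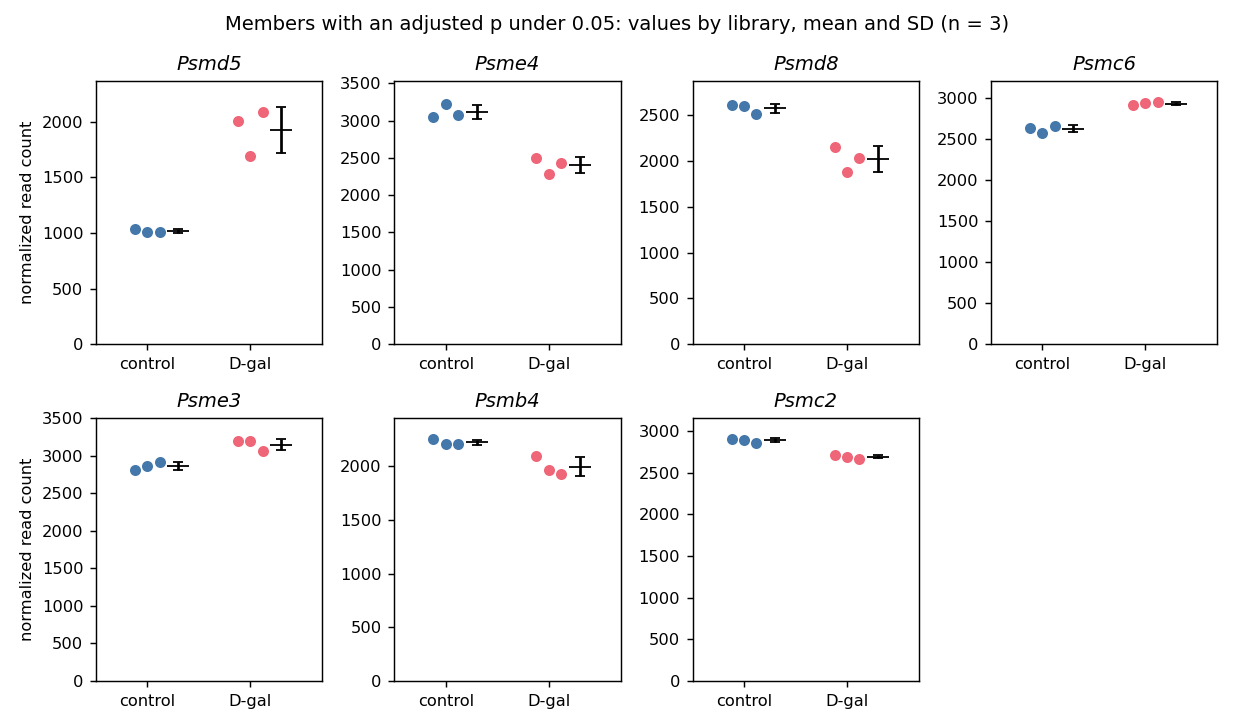
Normalized read counts (vertical axes, from 0) of the 7 members with an adjusted p under 0.05, in control and D-gal cells; dots are libraries, and the bar beside them is the mean with its SD (n = 3). Psmd5 rises from about 1019 to 1928, and the other 6 changes are small beside their level.

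Among the activators, Psme4 and Psme3 moved in opposite directions. Psme4 encodes PA200, a large single-chain activator of the nucleus linked to the breakdown of acetylated histones. It had 3043, 3222 and 3071 normalized counts with PBS and 2494, 2281 and 2436 with D-gal, so the groups lay clearly apart. The log2 fold change was -0.37 (SE 0.044), or 0.772-fold with a 95% confidence interval of 0.719 to 0.829 (adjusted p = 5.0e-04 by edgeR).

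Psme3 encodes PA28 gamma, a nuclear activator that works without ubiquitin. Its normalized counts were 2815, 2861 and 2915 with PBS and 3193, 3198 and 3061 with D-gal. All D-gal values were above all control values, at a log2 fold change of 0.14 (SE 0.035, adjusted p = 0.0170 by edgeR). Without Control replicate 1 the adjusted p was 0.0576. For each 100 counts on Psme3, Psme4 had 105.3 to 112.6 in control and 71.3 to 79.6 in D-gal libraries. Both genes lie on chromosome 11 (GRCm38), Psme4 from 30771726 to 30880361 and Psme3 from 101316213 to 101323537, each on the plus strand, and neither shared a 31-base word with another gene.

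The cytoplasmic activator PA28 is built from Psme1 and Psme2 and is known as inducible by interferon gamma. Psme1 had normalized counts of 537.7, 527.9 and 515.0 in control and 529.7, 453.2 and 523.0 in D-gal libraries, and Psme2 had 187.4, 176.3 and 216.1 against 207.6, 193.3 and 194.0. Both overlapped between groups, at log2 fold changes of -0.07 (SE 0.075) and 0.04 (SE 0.11). The copy Psme2b had more counts than Psme2, 560.1 against 193.2 on average in control libraries. Psme2b fell within the same spread at -0.14 (SE 0.078, adjusted p = 0.189). As 33.5% of the 31-base words of Psme2 occur in Psme2b and 76.5% of those of Psme2b in Psme2, the split of reads between the pair is uncertain.

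Of the 8 lid genes taken by the rule, 7 did not pass and Psmd8 fell (12.5% called, where 34.8% of all genes tested were). The lid gene Shfm1, whose symbol the rule does not match, also fell and is described below. Psmd8 encodes Rpn12, the last subunit to join the lid. Its normalized counts were 2607, 2597 and 2517 in control and 2157, 1877 and 2038 in D-gal libraries, with a clear gap between the groups. The log2 fold change was -0.35 (SE 0.053), or 0.786-fold with a 95% confidence interval of 0.723 to 0.855 (adjusted p = 0.00163 by edgeR). Set against the other 7 lid genes, Psmd8 had 15.4 to 16.1 counts per 100 in control and 11.2 to 12.9 in D-gal libraries. The gene lies on chromosome 7 (GRCm38, 29174188 to 29180701, minus strand), and 2.06% of its words are shared.

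Psmd14 encodes Rpn11, the enzyme that cuts the ubiquitin chain off the substrate. It had 1713, 1914 and 1833 normalized counts in control and 1958, 1904 and 2086 in D-gal libraries, which overlap, at 0.12 (SE 0.054, adjusted p = 0.113 by edgeR). Psmd6, a scaffold subunit of the lid, stood at 0.08 (SE 0.039). The lid genes other than Psmd8 spanned log2 fold changes of -0.11 for Psmd3 to 0.15 for Psmd12, and the median of all 8 was 0.02.

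In the ATPase ring, Psmc6 rose and Psmc2 fell while Psmc1, Psmc3, Psmc4 and Psmc5 overlapped between groups. Psmc6 encodes Rpt4. Its normalized counts were 2638, 2582 and 2663 in control and 2913, 2940 and 2950 in D-gal libraries. The groups were apart by more than the spread within either, at a log2 fold change of 0.16 (SE 0.032, adjusted p = 0.00606 by edgeR). Psmc2, which encodes Rpt1, had 2907, 2898 and 2860 against 2712, 2692 and 2670. Its groups did not overlap, but the log2 fold change of -0.10 (SE 0.031, adjusted p = 0.0353 by edgeR) was not called by DESeq2 (adjusted p = 0.166) or without any 1 of the 6 libraries (adjusted p = 0.0569 to 0.0955 by edgeR). Leaving out 1 library also lowered the calls in the whole table, from 4661 to between 3651 and 4009. Of the 6 ATPase genes, 33.3% were called, where 34.8% of all genes tested were, and the ring's median was 0.004. Psmc1, for which 32.2% of the words are shared with other genes, stood at 0.07 (SE 0.039).

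The large scaffold subunits of the base overlapped between groups, and none of the 3 base genes without ATPase activity passed. Psmd1, which encodes Rpn2, had a log2 fold change of 0.03 (SE 0.039), Psmd2, which encodes Rpn1, -0.05 (SE 0.037), and the ubiquitin receptor gene Psmd4, for Rpn10, 0.05 (SE 0.062).

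The beta ring had the lowest class median among the core and regulatory classes, -0.08. Of its 7 tested genes, 1 was called (14.3%, where 34.8% of all genes tested were called). Psmb4, which encodes the non-catalytic beta 7 subunit, had 2255, 2206 and 2210 normalized counts in control and 2094, 1970 and 1930 in D-gal libraries. All D-gal values were below all control values, at a log2 fold change of -0.15 (SE 0.041, adjusted p = 0.0209 by edgeR). By DESeq2 the adjusted p was 0.0505, and by edgeR it was 0.0664 without Control replicate 1, 0.0512 without Control replicate 2, 0.0602 without D-gal replicate 2 and 0.0671 without D-gal replicate 3.

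Psmb7, which encodes the trypsin-like site, was lower in all D-gal libraries (1753, 1762 and 1727 normalized counts) than in all control libraries (1908, 1829 and 1874), yet missed the threshold at -0.10 (SE 0.035, adjusted p = 0.0655 by edgeR). Psmb1 and Psmb3, both structural subunits, also had groups apart, each at -0.08. That makes 4 of the 7 tested genes apart, all lower, where 49.1% of all genes tested lay apart in either direction. The other catalytic subunits, Psmb5 with the chymotrypsin-like and Psmb6 with the caspase-like site, overlapped. Summed over the ring, normalized counts were 13200, 13230 and 13060 in control and 12540, 12540 and 12560 in D-gal libraries. For each 100 alpha ring counts there were 96.0 to 99.3 beta ring counts in control and 92.9 to 96.3 in D-gal libraries, and these ranges overlapped.

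No gene of the alpha ring passed. Psma1 was higher in every D-gal library (2120, 2106 and 2145 normalized counts) than in the control libraries (2097, 2084 and 1878), at a log2 fold change of 0.07 (SE 0.048). Psma5 had 528.1, 503.5 and 570.6 normalized counts in control and 483.7, 480.5 and 484.4 in D-gal libraries, apart but not called at -0.14 (SE 0.066, adjusted p = 0.131 by edgeR), and 61.0% of its words occur in other genes. Psma2 stood at -0.08 (SE 0.040) and Psma7 at -0.11 (SE 0.071). In Psma7, Control replicate 2 had 2576 normalized counts where the other control libraries had 3123 and 3086, and without it the log2 fold change was -0.20 with an adjusted p of 0.00916 by edgeR. The median of the 7 tested alpha genes was -0.02.

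**Figure D4:**
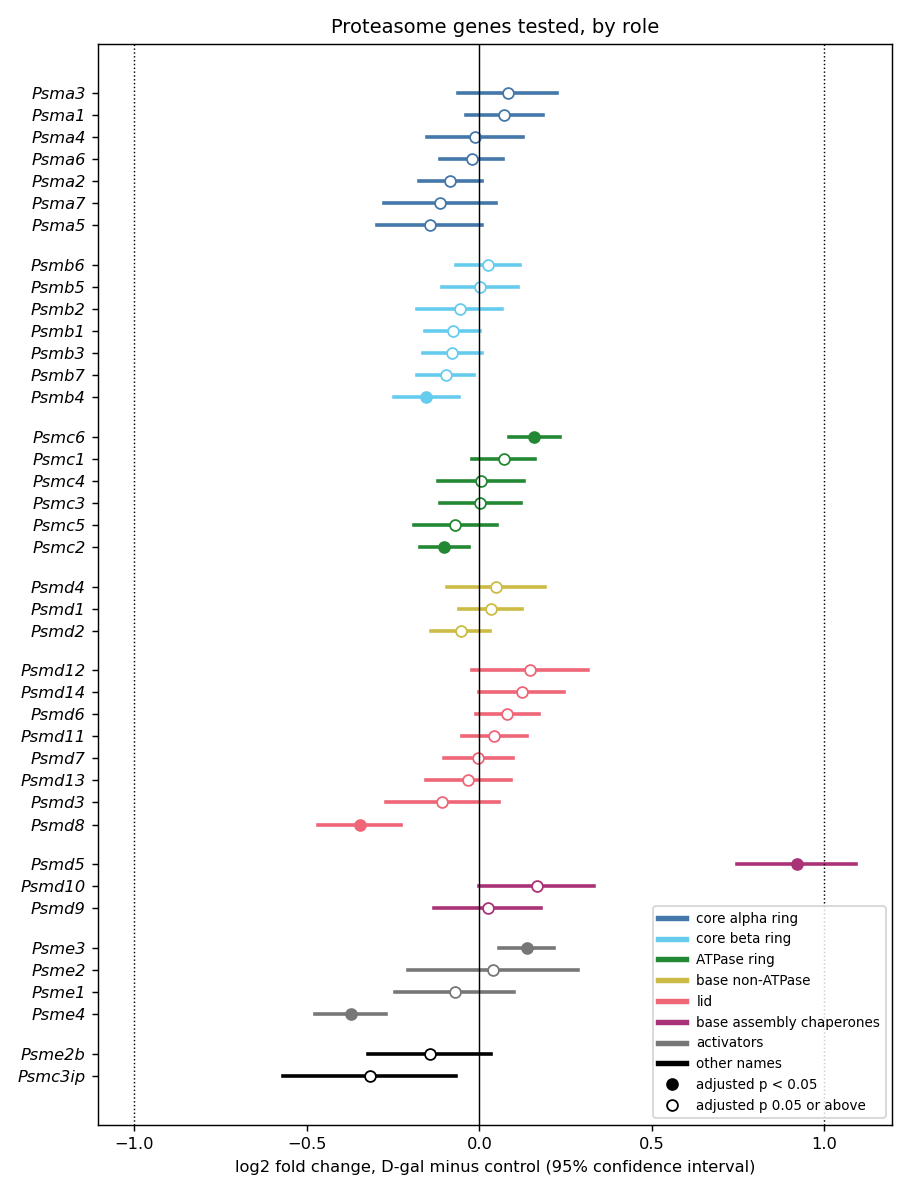
Log2 fold change of D-gal minus control libraries (horizontal axis) for the 40 members tested, grouped by role, with the 95% confidence interval as a line; filled points have an adjusted p under 0.05 by edgeR, and dotted lines mark a log2 fold change of 1 in either direction. Psmd5 at 0.92 stands alone to the right, Psme4 at -0.37 and Psmd8 at -0.35 lie to the left, and most others gather near 0.

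Between classes, the medians were -0.02 for the alpha ring, -0.08 for the beta ring, 0.004 for the ATPase ring, 0.03 for the base genes without ATPase activity, 0.02 for the lid, 0.17 for the chaperones and -0.02 for the activators. The range within the lid (-0.35 to 0.15), the chaperones (0.02 to 0.92) and the activators (-0.37 to 0.14) was wider than that among these medians. For each 100 counts on the core particle there were 166.0 to 172.1 on the regulatory particle in control and 174.4 to 175.4 in D-gal libraries, groups that did not overlap. With 3 libraries against 3, an exact permutation test of such a ratio cannot give a two-sided p under 0.1.

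Per length, the subunits of the complex did not stand at equal RNA levels. In control libraries they ranged from 14.2 RPKM for Psma3 to 119.5 RPKM for Psma6, with class medians of 40.8 for the alpha ring, 56.9 for the beta ring, 51.3 for the ATPase ring, 40.1 for the base genes without ATPase activity and 44.2 for the lid. These levels rest on the length of all annotated exons joined, 3894 bases for Psma3 and 1234 for Psma6. By mean normalized counts in control libraries, Psma3 had 926.7 and Psma6 had 2474. The chaperones (median 8.40 RPKM) and activators (18.2 RPKM) were lower. Exon length was 7230 bases for the chaperone gene Psmd5, 7248 for Psmd9 and 1469 for Psmd10. Among the activators, Psme3 at 57.9 RPKM stood above Psme4 at 22.1, Psme1 at 14.2 and Psme2 at 6.53.

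**Figure D5:**
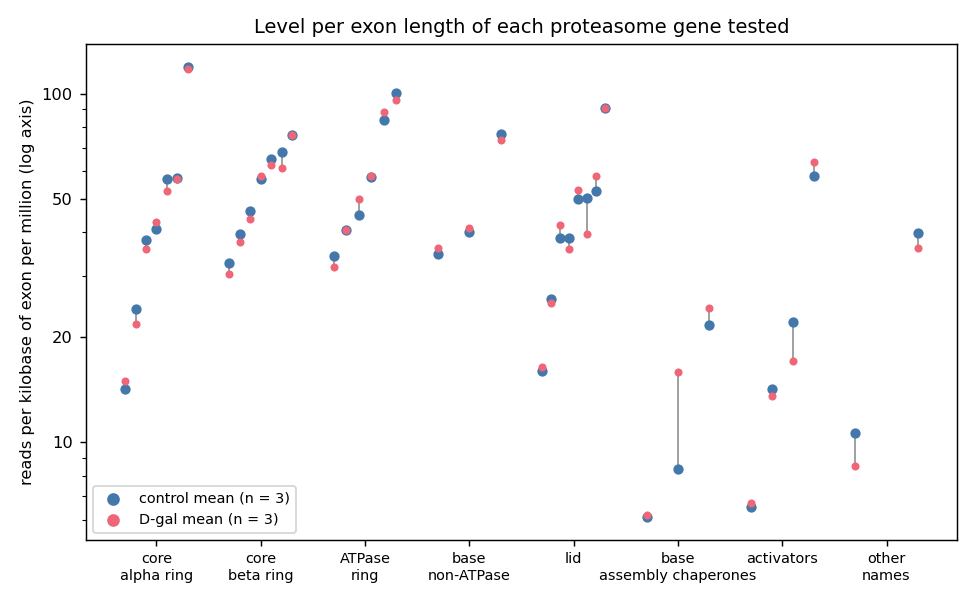
Mean RPKM on a log axis (vertical) for each tested member, grouped by role (horizontal), with control and D-gal means joined by a grey line (n = 3 each). The lines are short beside the spread among genes within a role, and the longest belongs to Psmd5, from 8.40 to 15.9 RPKM.

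The remaining names added little. Psma8, the alpha subunit of the testis, had no count in any library, nor did Psmb5-ps and Psmb6-ps, and a count of 0 allows up to 3 counts in a library of this depth, counting error only. Psmb11, the beta subunit of the thymus, had no count with PBS and 0, 3 and 2 counts with D-gal. Psmb6-ps2 and Psmb7-ps2 had means of 0.272 and 2.31 normalized counts in control and 0.776 and 6.38 in D-gal libraries and were not tested. Psmc3ip had 295.4, 356.6 and 323.2 normalized counts in control and 281.7, 230.4 and 271.1 in D-gal libraries, apart but not called at -0.32 (SE 0.11, adjusted p = 0.0545 by edgeR). It was called lower without Control replicate 1 (adjusted p = 0.0476 by edgeR) and with counts thinned to the smallest library (adjusted p = 0.0346 by edgeR). In all, 14 tested members shared more than 10% of their words with other genes, and their values carry that uncertainty. Chromosome 11 held 11 of the 46 members and 6.44% of the genes in the table.

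The inducible subunits left out by the rule were low. Psmb8 had 5.46 to 22.9 and Psmb9 18.6 to 32.3 normalized counts over the 6 libraries, and Psmb10 had 204.8 to 243.4, with none of the 3 called.

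Genes that build, load or regulate the proteasome were read from lists of the same kind, beside the 34.8% of all genes tested that were called and their median log2 fold change of 0.004. Of 18 associated proteins and assembly factors tested, 5 rose and 1 fell (33.3%, near the share of all genes), and the list's median was 0.03. The gene that fell was Shfm1, also named Sem1, a lid subunit whose symbol the rule does not match. Its log2 fold change was -0.25 (SE 0.060, adjusted p = 0.0144 by edgeR), with groups that did not overlap. Zfand5, which helps substrates reach the proteasome and is induced in muscle atrophy, had 1807, 1841 and 1801 normalized counts in control and 2034, 2064 and 2120 in D-gal libraries, a log2 fold change of 0.19 (SE 0.035, adjusted p = 0.00406 by edgeR). Adrm1, the ubiquitin receptor Rpn13, rose by 0.20 (SE 0.046, adjusted p = 0.0119 by edgeR). Both had groups that did not overlap.

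Of 16 transcriptional regulators and their partners tested, 5 rose and 2 fell (43.8%, where 34.8% of all genes tested were called), with a median of 0.09. Mafk, a small Maf protein that pairs with NRF1 and NRF2, rose from 1139, 1186 and 1133 normalized counts to 1601, 1671 and 1619, a log2 fold change of 0.50 (SE 0.041, adjusted p = 8.3e-05 by edgeR). Foxo3, which is known to drive proteolysis in muscle, rose by 0.27 (SE 0.035, adjusted p = 7.9e-04 by edgeR). Nfe2l2, which encodes NRF2, fell by 0.19 on the log2 scale (SE 0.044, adjusted p = 0.0108 by edgeR). Nfe2l1 had 1633, 2265 and 1609 normalized counts in control and 1520, 1641 and 1821 in D-gal libraries, which overlap, at -0.15 (SE 0.13).

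Upstream of the proteasome, 2 of 19 tested ubiquitin and conjugation genes rose and 4 fell (31.6%, near the 34.8% of all genes tested), with a median of -0.02. The largest changes by p were those of Ube2c and Ube2s, the conjugating enzymes of the anaphase-promoting complex, at -0.50 (SE 0.035, adjusted p = 4.5e-05 by edgeR) and -0.39 (SE 0.076, adjusted p = 0.00541 by edgeR). Among 18 genes for p97 and shuttle factors, 4 rose and 2 fell (33.3%, again near the share of all genes), with a median of 0.05. Sqstm1, the p62 receptor of selective autophagy, went from 11080, 10780 and 10460 normalized counts to 8421, 8219 and 8352, a log2 fold change of -0.37 (SE 0.031, adjusted p = 8.6e-05 by edgeR), and Ubqln2, a shuttle that carries ubiquitinated proteins to the proteasome, rose by 0.22 (SE 0.041, adjusted p = 0.00428 by edgeR).

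Of 7 tested ubiquitin ligases of muscle atrophy, 2 rose and none fell (28.6%, where 34.8% of all genes tested were called), with a median of 0.15. Fbxo32, which encodes atrogin-1, had 315.5, 279.1 and 294.9 normalized counts in control and 462.4, 464.1 and 531.4 in D-gal libraries, a log2 fold change of 0.71 (SE 0.086, adjusted p = 5.3e-04 by edgeR). Fbxo30 rose by 0.20 (SE 0.039, adjusted p = 0.00625 by edgeR). Trim63, which encodes MuRF1 in muscle fibres, had means of 3.87 and 2.55 normalized counts and was not tested.

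The COP9 signalosome, a complex built like the proteasome lid, had 1 of 9 genes higher and 1 lower (22.2%, where 34.8% of all genes tested were called). Cops2 rose by 0.33 (SE 0.051, adjusted p = 0.00175 by edgeR), and Cops7a fell by 0.13 on the log2 scale (SE 0.041, adjusted p = 0.0474 by edgeR). The call of Cops7a was lost with DESeq2 (adjusted p = 0.157) and, by edgeR, without any library other than Control replicate 3 (adjusted p = 0.0662 to 0.141). The 8 lid genes taken by the rule had 1 lower and none higher (12.5%), a count that leaves out the lid gene Shfm1, which fell. The medians were 0.03 for the signalosome and 0.02 for these 8 lid genes.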

How the data were processed

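RNA-seq of NOR-10 fibroblasts was analysed in 3 control and 3 D-gal libraries, grouped by the sample labels, with dose and duration from the study's methods. The deposited table gives a read count per gene and library, which the authors left without normalization. The authors checked and trimmed the reads, and HISAT2 (version 2.0.4) is named in the submitters' processing notes; the counting tool, its strand setting and the annotation are not given in the sources used here. The deposited FPKM values divide each count by a gene length and by the library total, and were used in an alternative only. The study's methods name a small RNA kit for these libraries, which was not checked.

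Counts were fitted in edgeR (version 4.0.16, under R 4.3.3) after TMM scaling and filterByExpr, by the quasi-likelihood test over all 13407 genes that passed, with Benjamini-Hochberg adjustment. A gene was called at an adjusted p-value under 0.05, and the study's further threshold is a log2 fold change of 1 or more in either direction. For normalized counts, each library was scaled to the mean TMM-adjusted library size. RPKM uses the union of exons in GENCODE release M21 (GRCm38), where all 46 members were found. Shared words of 31 bases were counted over its transcripts. Promoters came from RefSeq (GRCm38.p6). The scripts were tested on simulated data.

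The members, roles and gene lists, written from general knowledge, were chosen with earlier results of these data known. Named in the text were, for each role, the 3 members with the smallest p and the largest change. Every activator and every member not tested or without a proteasome role was also named. So were the 2 genes of smallest p from each related list, and Nfe2l1, Nfe2l2, Psmb8, Psmb9 and Psmb10. Some other genes, Shfm1 among them, are named where a sentence describes them. Psma4, Psmb2, Psmd7, Psmd11 and Psmd13, none of them called, were not described singly. Alternatives were DESeq2 (version 1.42.0), RLE scaling, no filter, a minimum of 10 counts per gene in all libraries, a replicate block, leaving out each library, limma (version 3.58.1) on log2(FPKM + 1) and log2(FPKM + 0.1), thinned counts (seed 7), an adjusted p-value under 0.01 and other role assignments. Summing Psme2 and Psme2b was added after seeing the data.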

Additional observations from a re-analysis of the deposited data

How the results depend on the processing

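The calls of Psmd5, Psme4, Psmd8 and Psmc6 held under every alternative run, with log2 fold changes of 0.85 to 1.01 for Psmd5, -0.40 to -0.32 for Psme4 and -0.40 to -0.29 for Psmd8, and no result changed sign as a called value. Of 613 values of named genes under the alternatives, 579 kept their side of the threshold, 27 lost it and 7 gained it. The count of members lower, 4 in the report, was 2 with DESeq2, 2 at an adjusted p under 0.01 and 2 to 3 with 1 library left out, 2 being without D-gal replicate 2 or 3. It was 5 with thinned counts, which added Psmc3ip, and 3 to 4 under the other alternatives. Members past the fold threshold numbered 0 to 1 with 1 library left out, the 1 being Psmd5 without D-gal replicate 2. With limma on log2(FPKM + 1) or log2(FPKM + 0.1), 5 members were higher, Psmd10 and Psmd6 being added. The limma medians with the larger and the smaller pseudocount were 0.0277 and 0.0281 for all members, 0.0120 and 0.0121 for the alpha ring, -0.0427 and -0.0430 for the beta ring, 0.0372 and 0.0384 for the ATPase ring and 0.0513 and 0.0545 for the lid. In the whole table, limma with a pseudocount of 1 called 120 genes with the fold threshold, where edgeR called 564. An adjusted p under 0.01 alone left 2729 of 4661. At an adjusted p under 0.05 by edgeR, leaving out 1 library left 3651 to 4009 genes called, so calls were lost across the whole table. With 1 library left out, the median was -0.0316 to -0.00106 for all members, -0.0592 to 0.00234 for the alpha ring, -0.0862 to -0.0585 for the beta ring, -0.0332 to 0.0318 for the ATPase ring, -0.0106 to 0.0368 for the base genes without ATPase activity, 0.0135 to 0.0455 for the lid, 0.106 to 0.215 for the chaperones and -0.0531 to 0.0292 for the activators. The signs of the alpha, ATPase, base and activator medians thus changed with the library left out. The lid median was 0.0436 with Psmd4 counted in the lid, and the activator median -0.0830 with Psme2 and Psme2b summed. The cause of these shifts was not tested.

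Libraries with the same replicate number did not deviate together (correlations of -0.014, -0.0065 and 0.026), so the numbers are taken as names. With a replicate block, 3 members were higher and 3 lower, Psmc2 being lost (adjusted p = 0.0805 by edgeR), and 3982 genes of the whole table were called.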
